A study of Danio rerio with 4 samples.

Results

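Transcript levels of 9 retinoic acid genes were followed through adult zebrafish ventricles before and after resection: rdh10a, aldh1a2, dhrs3a, cyp26a1, cyp26b1, raraa, rarab, rarga and stra6. They were chosen by name for their roles in making, breaking down, sensing and taking up retinoids, and are 9 of the 31388 genes in the deposited tables. Of the 9, 7 reached 50 counts in at least 1 library, as did 15621 genes of the whole tables, while cyp26a1 and stra6 did not and entered no test. The 4 libraries came from fish aged 6 months to 1 year. They were wild-type AB* (WT) ventricles without injury, dusp6 pt30a/pt30a (dusp6 mutant) ventricles without injury, WT ventricles at 20 days post amputation (dpa) of part of the ventricle, and dusp6 mutant ventricles at 20 dpa. The mutation is in the gene of Dusp6, a phosphatase that switches off ERK kinases.

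Each group was a single library, so no value has a replicate check, and the number of ventricles in a library is not given. The libraries held 55197408 to 63222206 counts, and a count of 3 was worth 0.0448 to 0.0574 CPM (counts relative to the library total, scaled by the trimmed mean of M values, TMM). The names the tables give the uninjured libraries follow another pattern than those of the 20 dpa libraries. What that pattern marks is not stated, and whatever it marks cannot be told apart from injury. The dusp6 transcript stood at 85.0 CPM in uninjured WT, 183 in the uninjured mutant, 105 in WT at 20 dpa and 121 in the mutant at 20 dpa, which does not check the genotype, since a mutant transcript can still be made. Genes of 8 ventricular cardiomyocyte markers summed to 86110 to 92480 CPM in the 4 libraries. Most of that sum came from vmhcl, myl7, actc1a and cmlc1, and its members differed. Vmhc stood at 356 CPM in uninjured WT, 722 in the uninjured mutant, 672 in WT at 20 dpa and 248 in the mutant at 20 dpa. Ryr2b stood at 1663, 1307, 1164 and 1136 CPM in the same order. The 20 dpa libraries also held more of the fast skeletal muscle genes: mylpfa, a fast myosin light chain, stood at 0.433 and 0.310 CPM in the uninjured WT and dusp6 libraries and at 17.7 and 5.55 CPM at 20 dpa.

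Retinoic acid is made from retinol in a pair of steps. Retinol dehydrogenases such as Rdh10 oxidise retinol to retinal, Dhrs3 reduces retinal back to retinol, and Aldh1a2 oxidises retinal to retinoic acid. Cyp26 enzymes break retinoic acid down, and the rest binds nuclear receptors of the Rar family, which act on target genes as partners of Rxr receptors. In the zebrafish heart, aldh1a2 is known as a gene that the epicardium and endocardium switch on after injury, and retinoic acid signalling is known to be needed for cardiomyocyte proliferation there.

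Of the 7 members tested, aldh1a2 had the largest difference after resection, and it was the only one that passed the test for injury. The gene stood at 42.3 CPM in uninjured WT, 32.4 in the uninjured mutant, 150 in WT at 20 dpa and 117 in the mutant at 20 dpa, from 2831, 1983, 8250 and 6087 counts. Both 20 dpa libraries lay far above both uninjured libraries, and within each condition the mutant library was the lower. In WT the 20 dpa library was 3.54-fold above its uninjured library (95% counting interval 3.39 to 3.70), and in the mutant 3.60-fold (3.42 to 3.79). These intervals cover counting error only. The difference between the mutant and the WT response came to 0.02 on the log2 scale, with a counting interval of -0.07 to 0.12, and was not tested, since no residual degree of freedom is left for it.

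In an additive fit of genotype and injury over all 15621 genes, aldh1a2 rose by 1.84 ± 0.12 on the log2 scale (SE), or 3.57-fold, with an adjusted p of 0.0484 in edgeR's quasi-likelihood test with Benjamini-Hochberg adjustment. That fit has 1 residual degree of freedom, taken from how unequally WT and mutant moved with injury, since there are no replicate libraries. Its test also draws the spread of each gene toward a trend over all genes, so the SE and p-value rest partly on other genes. Of all genes tested, 0.538% rose and 0.282% fell by the same rule, or 84 and 44 genes, against 1 and 0 of the 7 members tested. At an unadjusted p under 0.05 in the same edgeR test there were 5 of the 7 members and 4284 of the 15621 genes, and DESeq2 and limma-voom each called 1 member, with 1394 and 535 genes in all. Of the 128 genes called, 98 share the adjusted p of aldh1a2, and 40 of the 84 that rose had a larger log2 rise. The call was lost under 7 of 11 alternatives, with adjusted p-values from 0.0531 under scaling by total counts to 0.158 without the WT 20 dpa library in edgeR, while the log2 value itself ran from 1.65 to 2.04 under all 11. In the authors' deposited table, which sets each 20 dpa library against both uninjured libraries and so shares those between its comparisons, aldh1a2 had folds of 3.98 in WT (FDR 4.591e-08) and 3.15 in the mutant (FDR 3.284e-05). It was the only member of the 9 with an FDR under 0.05 in either comparison of the authors' deposited table, where 480 of 31388 genes in WT and 440 in the mutant had one.

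**Figure D1:**
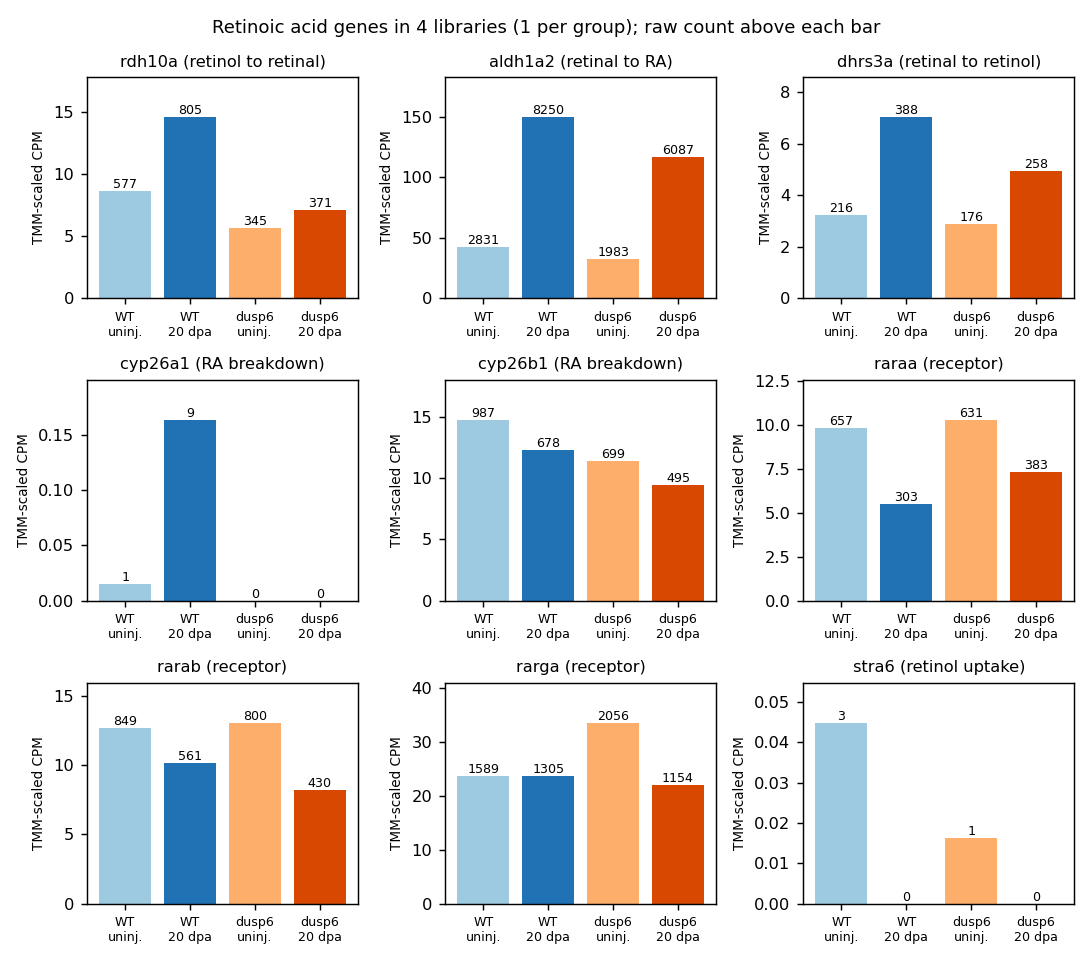
TMM-scaled CPM of the 9 retinoic acid genes (y axis, a scale of its own in each panel, from 0) in the 4 libraries (x axis, 1 bar per library, no error bars since each group has 1 library), with the raw count above each bar. Both 20 dpa bars stand above both uninjured bars for aldh1a2 and dhrs3a, and cyp26a1 and stra6 hold at most 9 counts in any library.

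Aldh1a2 was also the member with the highest level per length. Its deposited RPKM (counts per gene length and per library total) was 14.5 in uninjured WT, 10.6 in the uninjured mutant, 49.3 in WT at 20 dpa and 35.7 in the mutant at 20 dpa. Those levels lay above 84.6%, 80.4%, 94.9% and 93.6% of the 15621 genes of the same libraries. By mean RPKM over the libraries the order of the members was aldh1a2 at 27.5, rarga at 9.11, rdh10a at 3.37, cyp26b1 at 2.79, dhrs3a at 2.34, rarab at 2.31 and raraa at 2.06, with cyp26a1 at 0.0215 and stra6 at 0.00452. The order was not the same in every library: in dusp6 uninjured, rarga at 11.9 RPKM was above aldh1a2 at 10.6. From rdh10a to raraa the neighbours overlapped in their ranges over the libraries.

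Rdh10a, which makes the retinal that Aldh1a2 uses, stood at 8.62 CPM in uninjured WT, 5.63 in the uninjured mutant, 14.6 in WT at 20 dpa and 7.10 in the mutant at 20 dpa. The WT 20 dpa library was the highest, and the mutant 20 dpa library lay below the WT uninjured library, so injured and uninjured libraries overlapped. The ratio of 20 dpa to uninjured was 1.70 in WT (counting interval 1.52 to 1.89) and 1.26 in the mutant (1.09 to 1.47). The difference of these responses was -0.43 on the log2 scale, mutant minus WT, with a counting interval of -0.69 to -0.16, and was not tested. The injury difference of the additive fit was 0.55 ± 0.18 (SE) on the log2 scale, with an adjusted p of 0.153 in edgeR's quasi-likelihood test with Benjamini-Hochberg adjustment. With 1 library left out, a fit of injury alone gave values from 0.0012 (without WT at 20 dpa) to 1.03 (without the mutant at 20 dpa). Those fits held no genotype term, so their values mix the genotype difference with that of injury.

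Dhrs3a, which works in the opposite direction to rdh10a, stood at 3.23 CPM in uninjured WT, 2.87 in the uninjured mutant, 7.04 in WT at 20 dpa and 4.94 in the mutant at 20 dpa. Both 20 dpa libraries were above both uninjured libraries. The ratio was 2.18 in WT (counting interval 1.84 to 2.59) and 1.72 in the mutant (1.41 to 2.10), and the additive fit gave 0.96 ± 0.21 on the log2 scale with an adjusted p of 0.0884 in edgeR's quasi-likelihood test with Benjamini-Hochberg adjustment. With aldh1a2 it made 2 of 7 members whose 20 dpa libraries both lay above both uninjured libraries, where 29.1% of all tested genes did so. Another RefSeq gene overlaps dhrs3a, and whether the counting used strand is not stated.

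In WT, aldh1a2 and dhrs3a were the 2 members past a 2-fold ratio upward, where 6.86% of the 15111 genes compared were, and 0 members were past it downward, where 5.29% were. In the mutant, aldh1a2 was the 1 member past a 2-fold ratio upward, where 6.64% of 15052 genes were, and 0 were past it downward, where 8.66% were. In each genotype 3 of the 7 members had a ratio above 1 and 4 had a ratio below 1. The 3 were the synthesis and reduction genes rdh10a, aldh1a2 and dhrs3a, and the 4 were cyp26b1 and the receptors, with rarga in WT at 0.998. The share of all genes above 1 was not counted. The median injury difference over all tested genes was -0.01 on the log2 scale, so 3 against 4 lies near an even split of all genes.

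**Figure D2:**
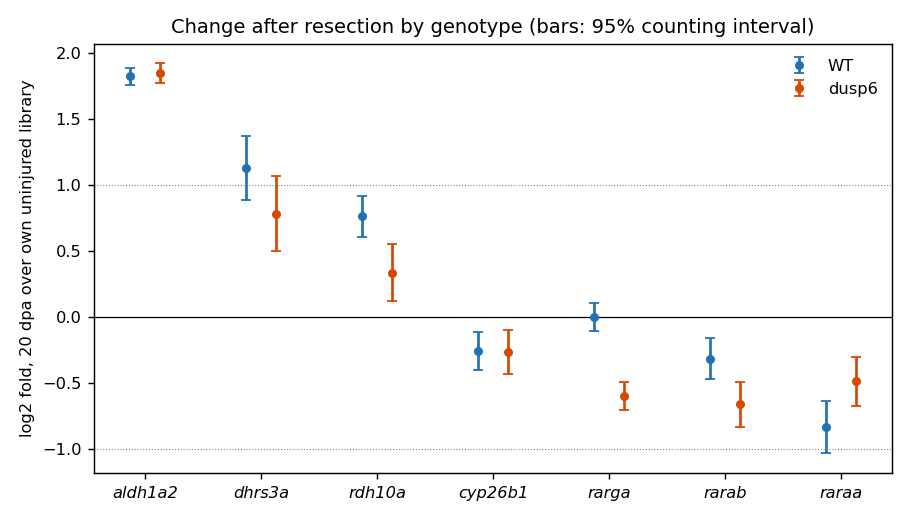
Log2 ratio of the 20 dpa library to the uninjured library of the same genotype (y axis) for the 7 members tested (x axis), WT in blue and dusp6 mutant in orange; bars are 95% counting intervals and dotted lines mark a 2-fold ratio. The points of aldh1a2 and of cyp26b1 nearly coincide between genotypes, while those of rarga lie 0.60 apart.

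Of the breakdown genes only cyp26b1 had the counts to be tested, and it did not pass. It stood at 14.7 CPM in uninjured WT, 11.4 in the uninjured mutant, 12.3 in WT at 20 dpa and 9.47 in the mutant at 20 dpa, so the mutant uninjured library lay between the 20 dpa libraries. The ratio of 20 dpa to uninjured was 0.835 in WT (counting interval 0.756 to 0.922) and 0.831 in the mutant (0.739 to 0.934). The additive fit gave -0.26 ± 0.14 on the log2 scale, with an adjusted p of 0.290 in edgeR's quasi-likelihood test with Benjamini-Hochberg adjustment. Cyp26a1, known as a direct target of retinoic acid receptors that breaks its ligand down, had 1 count in uninjured WT, 0 in the uninjured mutant, 9 in WT at 20 dpa and 0 in the mutant at 20 dpa. The ratio of 9 to 1 in WT was 10.9 after scaling, with a counting interval of 1.52 to 479, and the authors' deposited table gives it a fold of 16.8 in WT with an FDR of 0.418. At these depths, counts of 0 allow up to 0.0489 CPM in dusp6 uninjured and 0.0574 CPM in dusp6 20 dpa. A pair of rows with names built on cyp26c1 held at most 1 count in any library.

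Set against each other per length, aldh1a2 and cyp26b1 parted after injury. The ratio of their deposited RPKM was 4.06 in uninjured WT, 4.01 in the uninjured mutant, 17.2 in WT at 20 dpa and 17.4 in the mutant at 20 dpa. The values of the genotypes lay close together within each condition, and the injured libraries stood apart from the uninjured ones. The ratio of aldh1a2 to rdh10a was 4.29, 5.03, 8.97 and 14.4 in the same order, with the mutant above WT in both conditions. For rdh10a over dhrs3a it was 1.92, 1.41, 1.49 and 1.03, with WT uninjured the highest and dusp6 20 dpa the lowest. These ratios are levels of transcript and carry no test.

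**Figure D3:**
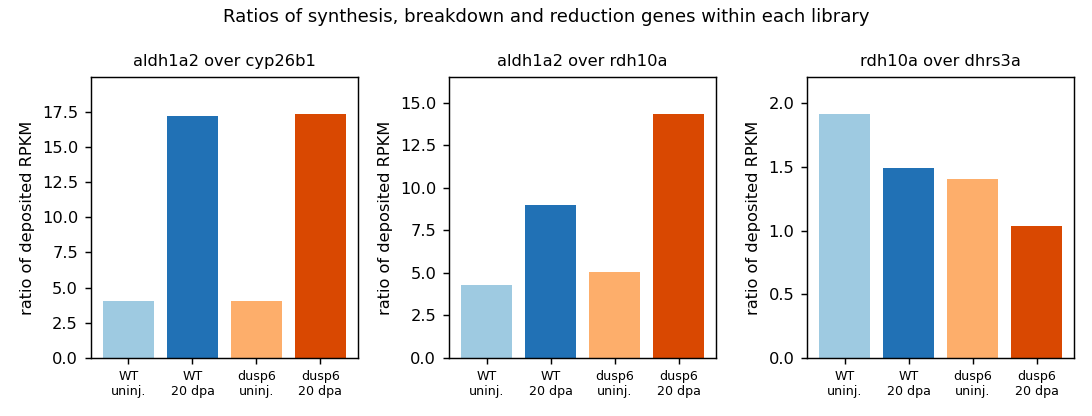
Ratio of deposited RPKM between 2 genes of the same library (y axis, from 0) in the 4 libraries (x axis, 1 bar per library, no error bars). The bars of aldh1a2 over cyp26b1 sit at 4.06 and 4.01 without injury and at 17.2 and 17.4 at 20 dpa, while those of rdh10a over dhrs3a lie between 1.03 and 1.92.

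The receptors did not pass the test for injury, and their values lay lower at 20 dpa or about level. Raraa stood at 9.81 CPM in uninjured WT, 10.3 in the uninjured mutant, 5.50 in WT at 20 dpa and 7.33 in the mutant at 20 dpa. Rarab stood at 12.7, 13.1, 10.2 and 8.23 CPM in the same order. For both paralogs the 20 dpa libraries lay below both uninjured libraries, with WT the lower of the 20 dpa libraries for raraa and the mutant the lower for rarab. How reads shared by these near copies were counted is not stated, nor is the use of strand, and a transfer RNA gene overlaps raraa in RefSeq.

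Raraa was 1.78-fold lower at 20 dpa in WT (counting interval 1.55 to 2.05), and its ratio in the mutant was 0.712 (0.626 to 0.810). Rarab had a ratio of 0.803 in WT (0.721 to 0.895) and was 1.59-fold lower in the mutant. The mutant response minus the WT response was 0.35 on the log2 scale for raraa (counting interval 0.08 to 0.61) and -0.35 for rarab (-0.58 to -0.12), so the paralogs parted in opposite directions, which was not tested. The additive fit gave -0.66 ± 0.18 for raraa and -0.49 ± 0.16 for rarab on the log2 scale, with adjusted p-values of 0.113 and 0.155 in edgeR's quasi-likelihood test with Benjamini-Hochberg adjustment.

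Rarga, the most abundant receptor of the 3, stood at 23.73 CPM in uninjured WT, 33.5 in the uninjured mutant, 23.69 in WT at 20 dpa and 22.1 in the mutant at 20 dpa. The mutant uninjured library stood above the other 3, which lay close together. Its ratio of 20 dpa to uninjured was 0.998 in WT (counting interval 0.927 to 1.08), and in the mutant the 20 dpa library was 1.52-fold lower. The mutant response minus the WT response was -0.60 on the log2 scale (-0.75 to -0.45), the widest gap of the 7 members, and was not tested. Raraa, rarab and rarga were the 3 members whose 20 dpa libraries both lay below both uninjured libraries, where 29.4% of all tested genes did so, and for rarga this rests on 23.69 against 23.73 CPM. The gene span of rarga overlaps that of nr1d4a in RefSeq, a nuclear receptor gene that stood at 7.05, 11.2, 0.127 and 0.306 CPM in the order uninjured WT, uninjured mutant, WT at 20 dpa and mutant at 20 dpa. It fell by 5.43 on the log2 scale with an adjusted p of 0.0484 in edgeR's quasi-likelihood test with Benjamini-Hochberg adjustment, and its part in the rarga values was not tested.

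The summed RPKM of the 3 receptors was 14.2 in uninjured WT, 17.2 in the uninjured mutant, 11.9 in WT at 20 dpa and 10.6 in the mutant at 20 dpa. Rarga made up 62.2% of that sum in WT uninjured and 68.8% to 70.6% in the other libraries. The ratio of aldh1a2 to rarga in RPKM was 1.65, 0.893, 5.85 and 4.88 in the same library order, so the enzyme of ligand synthesis was the more abundant transcript in every library but dusp6 uninjured.

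Stra6, the membrane receptor that takes up retinol from its carrier in mammals, had 3 counts in WT uninjured, 1 in dusp6 uninjured and 0 in each 20 dpa library. All of these are at or under the limit of 3 counts, so no ratio is given.

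Between the genotypes, 0 of the 7 members passed the test, where 0.0064% of all tested genes did, which is 1 gene (an ACTC1 copy). At an unadjusted p under 0.05 in the same edgeR test there were 3 members and 1380 genes, and DESeq2 and limma-voom each called 0 members, with 149 and 1 genes in all. In the uninjured ventricle 0 members were past a 2-fold ratio upward, where 4.21% of 15132 genes were, and 0 downward, where 3.26% were. At 20 dpa 0 were past it upward, where 3.27% of 14790 genes were, and 1 downward, where 4.46% were.

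That 1 member was rdh10a, which was 2.06-fold lower in the mutant than in WT at 20 dpa (counting interval 1.82 to 2.33) and 1.53-fold lower without injury. Its genotype difference in the additive fit was -0.83 ± 0.18 on the log2 scale, with an adjusted p of 0.426 in edgeR's quasi-likelihood test with Benjamini-Hochberg adjustment. Aldh1a2 was at 0.765 of the WT level without injury (counting interval 0.722 to 0.811) and at 0.778 at 20 dpa (0.752 to 0.804), and cyp26b1 at 0.774 and 0.770. Rarga was 1.41-fold above WT without injury (1.32 to 1.51) and at 0.932 of it at 20 dpa (0.861 to 1.01). Raraa was the 1 member above WT at 20 dpa, by 1.33-fold (1.14 to 1.56), with the other 6 below it.

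The wider pathway was read from 6 lists of 117 other genes, of which 102 were in the tables and 64 were tested. For injury 1 of the 64 rose and 0 fell in edgeR, while 29 had an unadjusted p under 0.05, DESeq2 called 10 and limma-voom 4. Over all 15621 genes the same counts were 84 and 44 in edgeR, 4284 at the unadjusted p, 1394 by DESeq2 and 535 by limma-voom. For genotype 0 were called by any of these tools, and 4 had an unadjusted p under 0.05. Their median injury difference was -0.01 on the log2 scale, where the median over all tested genes was also -0.01. Both 20 dpa libraries lay above both uninjured libraries for 17 of the 64 and below them for 25, beside 29.1% and 29.4% of all tested genes. In WT 10 of 64 were past a 2-fold ratio upward and 4 downward (15.6% and 6.25%, beside 6.86% and 5.29% of all genes compared). In the mutant 7 of 62 were past it upward and 5 downward (11.3% and 8.07%, beside 6.64% and 8.66%). The genes past it in both genotypes were 5 upward (crabp2a, crabp2b, fabp7a, rbp4 and rdh12) and 4 downward (bco1, ncoa1, rorcb and scarb1). How many of all genes were past it in both genotypes was not counted, so these have no background beside them. In the mutant against WT without injury, 1 of 61 was past a 2-fold ratio upward and 1 downward (1.64% each, beside 4.21% and 3.26%). At 20 dpa 1 of 63 was past it upward and 5 downward (1.59% and 7.94%, beside 3.27% and 4.46%). Those 5 were aldh8a1, dhrs9, rbp2a, rbp7b and dgat1a. The count minimum had a part in these counts: fabp7a, aldh8a1 and meis2b reached it only at 20 dpa and bco1 only without injury, the condition where each was high. It was applied to each pair of libraries compared, so more genes entered only through their high library. Crabp2a did so in the mutant (39 counts without injury, 291 at 20 dpa) and between uninjured genotypes (94 in WT, 39 in the mutant). So did dhrs9 in WT (38 without injury, 150 at 20 dpa) and aldh8a1 between genotypes at 20 dpa (56 in WT, 22 in the mutant).

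The gene that rose was rbp4, the retinol carrier of blood plasma. It stood at 95.4 CPM in uninjured WT, 104 in the uninjured mutant, 259 in WT at 20 dpa and 254 in the mutant at 20 dpa, with the genotypes close together in each condition. The rise was 1.37 ± 0.12 on the log2 scale, with an adjusted p of 0.0484 in edgeR's quasi-likelihood test with Benjamini-Hochberg adjustment, and the ratio was 2.72 in WT and 2.45 in the mutant. Rbp4 is known as a liver product, and the 14 liver markers summed to 20.4, 101, 42.5 and 20.6 CPM in the same order. The sum in the uninjured mutant was mostly that of 2 apolipoprotein genes, and without them the other 12 summed to 20.1, 23.3, 41.4 and 20.2 CPM, highest in WT at 20 dpa. Most of the sum of these 12 was tfa, at 17.5, 22.3, 30.8 and 18.5 CPM, higher at 20 dpa in WT and lower in the mutant. The liver gene fabp10a stood at 0.642, 0.163, 3.90 and 0.899 CPM, higher at 20 dpa in both genotypes. The rest of the 12 were low and went both ways in the mutant, with ambp lower at 20 dpa and cp higher. The part of liver RNA in the rbp4 values was not tested.

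Retinoid binding, uptake and storage was the list with the highest median, at 0.60 on the log2 scale over 15 genes tested of 29 in the tables. Of the 15, 7 were past a 2-fold ratio upward and 2 downward in WT, and 4 upward and 3 downward in the mutant, beside 6.86% and 5.29% of all genes compared in WT and 6.64% and 8.66% in the mutant. For injury edgeR called 1 of the 15, DESeq2 5 and limma-voom 2, and 9 had an unadjusted p under 0.05 in edgeR. Over all 15621 tested genes these counts were 128, 1394, 535 and 4284. The cellular retinoic acid binding proteins crabp2a and crabp2b, which carry retinoic acid inside the cell, were both high at 20 dpa but missed the threshold in edgeR. Crabp2b stood at 1.00 CPM in uninjured WT, 1.03 in the uninjured mutant, 3.74 in WT at 20 dpa and 5.28 in the mutant at 20 dpa, with an adjusted p of 0.0560 in edgeR's quasi-likelihood test with Benjamini-Hochberg adjustment. Crabp2a stood at 1.40, 0.636, 3.09 and 5.57 CPM in the same order. The lipid binding gene fabp7a, at 0.493, 0.196, 2.32 and 1.91 CPM, reached the count minimum only in the 20 dpa libraries.

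Among the carotenoid genes of the same list, bco1 and scarb1 had the opposite order. Bco1, whose product cleaves beta-carotene to retinal, stood at 0.792, 2.22, 0.236 and 0.344 CPM in uninjured WT, the uninjured mutant, WT at 20 dpa and the mutant at 20 dpa. Scarb1, a lipoprotein receptor through which carotenoids enter cells, stood at 6.18, 8.60, 3.09 and 4.06 CPM, so both uninjured libraries were above both 20 dpa libraries for each of the pair. Bco2l, a relative of bco1, stood at 4.99, 6.66, 10.5 and 7.25 CPM, with both 20 dpa libraries the higher. Dgat1a, which can esterify retinol for storage in mammals, stood at 3.15, 2.01, 8.50 and 2.39 CPM, high in the WT 20 dpa library alone. These genes, crabp2a, crabp2b and fabp7a were chosen after their values were seen, and none of them passed the edgeR test.

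The other lists had medians of 0.04 for retinol and retinal oxidation and reduction (15 tested), -0.10 for partner receptors (13 tested), -0.32 for receptor cofactors (14 tested) and 0.34 for retinoic acid responsive genes (11 tested) on the log2 scale. In each of these 4 lists 0 genes were called for injury by edgeR, with 4, 5, 7 and 8 genes at an unadjusted p under 0.05 in edgeR. DESeq2 called 1, 1, 2 and 2 and limma-voom 0, 1, 0 and 1. Over all 15621 tested genes edgeR called 128 and had 4284 at the unadjusted p, while DESeq2 called 1394 and limma-voom 535. The responsive list shares its tested genes crabp2a, dhrs3b, nr2f1a and nrip1a with the other pathway lists, so it is not a separate reading. Cofactors were the most one-sided of these lists, with both 20 dpa libraries below both uninjured libraries for 10 of 14 and above them for 2, beside 29.4% and 29.1% of all tested genes. Among the 2 most abundant genes of each list, adh5 stood at 47.2, 57.8, 46.9 and 61.5 CPM in the order uninjured WT, uninjured mutant, WT at 20 dpa and mutant at 20 dpa. The retinal reductase dhrs3b, a paralog of dhrs3a, stood at 18.6, 11.9, 24.1 and 21.4 CPM, with both 20 dpa libraries above both uninjured ones as for dhrs3a.

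Of the nuclear receptors, the most abundant per length were rorca at 29.4, 28.5, 24.2 and 21.1 CPM and nr2f6b at 26.6, 37.1, 28.0 and 26.1 CPM. Nr2f6b shared with rarga a high value in dusp6 uninjured and similar values in the other 3 libraries. Of the cofactors, the corepressor gene ncor1 stood at 249, 338, 211 and 193 CPM, also highest in dusp6 uninjured, and ncoa4 at 163, 142, 206 and 207 CPM. Of the responsive genes, meis1b stood at 97.5, 103, 101 and 96.7 CPM. Tgm2b, a transglutaminase gene known to respond to retinoic acid in mammals, stood at 31.5, 42.6, 60.3 and 70.0 CPM, with an adjusted p of 0.0621 in edgeR's quasi-likelihood test with Benjamini-Hochberg adjustment. Hoxb1a and hoxb1b, classic targets of retinoic acid in the embryo, had 0 counts in every library.

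**Figure D4:**
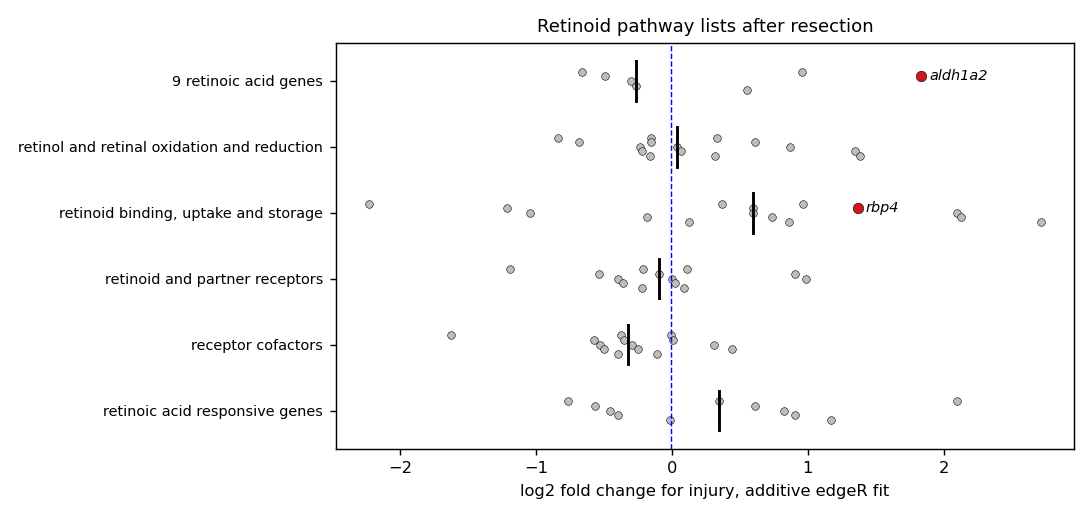
Log2 injury difference of the additive edgeR fit (x axis) for each tested gene (points, jittered vertically) of the member list, with 7 of its 9 genes tested, and of the 5 pathway lists with tested genes (y axis). Black bars are list medians, the dashed line is the median of all tested genes at -0.01, and red points mark aldh1a2 and rbp4, the 2 genes that passed the test.

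In bulk tissue, fewer cells of a type and less RNA per cell cannot be told apart, so the cell types known to express aldh1a2 were read beside it. The 18 epicardial markers in the tables summed to 900 CPM in uninjured WT, 897 in the uninjured mutant, 1629 in WT at 20 dpa and 1215 in the mutant at 20 dpa. That is a ratio of 1.81 in WT and 1.35 in the mutant, against 3.54 and 3.60 for aldh1a2. Much of the sum came from a few genes. In the same order, fn1b, also counted among the fibroblast and matrix markers, stood at 157, 208, 438 and 195 CPM. Podxl stood at 239, 248, 317 and 292 CPM. Of the 17 epicardial markers tested, 15 had an injury difference above 0 and 1 rose in edgeR (cav1, a caveolin gene), while DESeq2 called 6 and limma-voom 5. Over all 15621 tested genes, 84 rose and 44 fell in edgeR, DESeq2 called 1394 and limma-voom 535, and the median injury difference was -0.01. Both 20 dpa libraries lay above both uninjured libraries for 12 of the 17, beside 29.1% of all tested genes. The count minimum had a part here too: krt5 (21, 47, 286 and 270 counts in the same order) reached it only at 20 dpa, where it was high. Upk3b (35, 44, 20 and 12 counts), lower at 20 dpa, did not reach it and was not tested. The epicardial transcription factor gene tcf21 stood at 12.0, 12.5, 21.6 and 26.6 CPM in the same order, with an adjusted p of 0.0611 in edgeR's quasi-likelihood test with Benjamini-Hochberg adjustment. Wt1b stood at 1.48, 1.70, 2.87 and 3.73 CPM and wt1a at 1.11, 1.26, 2.23 and 1.88 CPM. Tbx18 stood at 9.56, 19.3, 20.1 and 17.2 CPM, so in the mutant its 20 dpa library lay below its uninjured library. The tested markers with an injury difference below 0 were clu (-0.48 on the log2 scale) and hapln1b (-0.65). The 19 endothelial and endocardial markers summed to 2281 to 2346 CPM in all 4 libraries, with ratios of 0.997 in WT and 0.986 in the mutant, but their members differed. The most abundant, spock3, stood at 985, 1038, 886 and 932 CPM in the same order. Klf2b, a flow-responsive transcription factor gene, rose from 9.72 and 15.2 to 32.5 and 52.1 CPM (adjusted p of 0.0484 in edgeR's quasi-likelihood test with Benjamini-Hochberg adjustment), the 1 gene of the 17 tested that edgeR called, while DESeq2 called 7 and limma-voom 3. Fibroblast and matrix markers, 14 genes, summed to 785, 980, 1724 and 1130 CPM. Of the 14, 13 had an injury difference above 0, so a shift upward was not particular to the epicardial list. Both 20 dpa libraries lay above both uninjured libraries for 10 of them and below for 0, beside 29.1% and 29.4% of all tested genes. EdgeR called 0 of the 14, DESeq2 5 and limma-voom 1. The part of any of these cell types in the aldh1a2 values was not tested.

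Of the other marker lists, 9 macrophage genes summed to 195, 252, 318 and 211 CPM and 4 red cell genes to 3960, 3079, 7369 and 5808 CPM in the order uninjured WT, uninjured mutant, WT at 20 dpa and mutant at 20 dpa. Most of the macrophage sum was cd74a, at 144, 184, 161 and 129 CPM, and the macrophage genes differed. Both 20 dpa libraries lay above both uninjured libraries for 4 of the 9, among them grn1 at 7.47, 19.5, 75.5 and 40.7 CPM. They lay below for 1, csf1rb, at 5.83, 5.14, 3.96 and 3.73 CPM. The shares of all tested genes were 29.1% and 29.4%. Most of the red cell sum was the globin gene hbaa1, at 3215, 2407, 6536 and 5025 CPM. The others were alas2 at 424.5, 405, 466 and 413 CPM, slc4a1a at 181, 151, 239 and 250 CPM and epb41b at 140, 117, 128 and 121 CPM. Outflow tract and smooth muscle genes, 8 in number, summed to 265, 282, 291 and 233 CPM, and 3 atrial genes to 1719, 1662, 1728 and 2845 CPM. Most of the atrial sum was nppa, at 1581, 1555, 1545 and 2559 CPM, and the other atrial genes differed. Myh6 stood at 86.6, 48.3, 144.5 and 250 CPM and tbx5a at 51.6, 59.2, 38.4 and 36.2 CPM. The 9 fast skeletal muscle genes summed to 4490, 4560, 3854 and 4150 CPM, nearly all of it ckma, a creatine kinase gene also active in heart. Without ckma, 4 of the 6 others tested rose in edgeR (mylpfa, pvalb1, pvalb2 and pvalb4), beside 0.538% of all tested genes. However, all 6 reached the count minimum only at 20 dpa and so could enter only where high. No marker of any list was at 0 in all 4 libraries.

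Genes with a plain lower-case symbol and at least 250 counts in 1 library were ranked by likeness to aldh1a2 over the 4 libraries. The nearest of these were ntn1b, aqp8a.1, mid1ip1b, fasn and coq10b. Likeness was the Euclidean distance between profiles of log2(CPM + 1) centred over the 4 libraries, and it ran from 0.0922 for ntn1b to 0.167 for coq10b. Ntn1b, a netrin gene, stood at 27.7 CPM in uninjured WT, 21.1 in the uninjured mutant, 92.2 in WT at 20 dpa and 77.5 in the mutant at 20 dpa. Fasn, the fatty acid synthase gene, stood at 13.6, 8.66, 45.8 and 35.8 CPM in the same order. Among the members dhrs3a was nearest to aldh1a2, at rank 359, followed by rdh10a at rank 1139, while cyp26b1 and the receptors ranked from 6358 to 8367.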

How the data were processed

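RNA sequencing covered 4 zebrafish ventricle libraries, 1 per group, grouped by the labels. The authors deposited tables of 31388 genes with whole-number gene counts and RPKM per library, per the file headers, and their signed fold (a score in which lower values are negative reciprocals) with the p-value and FDR of their EDGE test. Not given in the sources used here are aligner, build, annotation and strand use of the counting. A further 14 columns of values (normalised values and means) were not used.

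Counts were scaled by TMM and fitted as genotype plus injury in edgeR 4.0.16 (R 4.3.3) by its quasi-likelihood test, for 15621 genes with at least 50 counts in 1 library, called at a Benjamini-Hochberg adjusted p of 0.05. Standard errors are the log2 value over the root of the F statistic. TMM factors ran from 0.938 to 1.06. Single ratios are of scaled counts with exact conditional 95% intervals, and genes past a 2-fold ratio were counted with no test. Intervals and the limit of 3 counts for a count of 0 cover counting error only, since without molecular identifiers PCR copies count as reads of their own. Levels of members and of pathway genes were ranked against each other in RPKM. Marker sums, and the parts of single genes in them, are in CPM and are not corrected for gene length.

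The 9 members, the pathway and marker lists and the tests were chosen with earlier results of these data known. Named genes were the 9 members and the called genes of each pathway list or else its 2 with the highest mean RPKM. Also named were the 5 genes nearest to aldh1a2 (pseudocount of 1, at least 250 counts in 1 library, plain lower-case symbols only). The rest were genes said to be chosen after their values were seen. Marker genes named singly were chosen in the same way. Overlapping genes were looked up in RefSeq's GRCz12tu annotation by name. Alternatives were other scalings, count minimums, DESeq2 1.42.0, limma-voom (limma 3.58.1), injury alone, leaving out each library, and other folds. For the counts past a fold they were also deposited RPKM and the mean of both uninjured libraries as baseline.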

Additional observations from a re-analysis of the deposited data

How the results depend on the processing

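The count of 128 genes called for injury depended strongly on the setting: 333 under DESeq2 size factors, 1 under total counts, 987 with no filter beyond 1 count, 0 with at least 250 counts, 1394 by DESeq2, 535 by limma-voom, 0 with injury alone, and 0 to 25 when a library was left out (25 without WT uninjured, 0 without each of the others). At an unadjusted p under 0.05 the edgeR fit had 4284. The 1 member called, aldh1a2, became 0 under total counts, with at least 250 counts, with injury alone, and without each library in turn (0 to 0). Leaving out a library used the fit of injury alone. For genotype the 1 gene called became 22 with no filter, 0 with at least 250 counts and 149 by DESeq2. Members past a 2-fold ratio in WT, 2, became 4 at 1.5-fold, 0 at 4-fold and 4 with no filter. In the mutant 1 became 4, 0 and 2. Against the mean of both uninjured libraries there were 3 in WT and 1 in the mutant. Between uninjured genotypes 0 became 1 at 1.5-fold and 2 with no filter, and at 20 dpa 1 became 0 at 4-fold and 2 with no filter. With no filter the added members are cyp26a1 and stra6, with at most 9 counts. The cause of the other differences was not tested. Over 77 alternative injury values of the 7 members, 0 reversed direction and 7, all of aldh1a2, lost the call, and 42 genotype values kept their direction and side of the threshold. Without 1 library the injury value ran from -0.46 to -0.07 for cyp26b1, from -0.55 to -0.05 for rarga and from 0.0012 to 1.03 for rdh10a on the log2 scale. Total counts moved the median gene by -0.10 for injury and by -0.11 in the mutant's own response on the log2 scale. No paired analysis was possible because the labels give each group 1 library and no replicate numbers.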
